A study of Mus musculus with 4 samples.

Results

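CC chemokines are small secreted proteins that draw leukocytes out of the blood, and they act through G protein-coupled receptors on those cells. The genes described here are 7 ligands (Ccl2, Ccl3, Ccl6, Ccl7, Ccl8, Ccl9 and Ccl11) and 2 receptors (Ccr1 and Ccr2), chosen by name. Every probe set whose only annotated gene symbol was 1 of these 9 was taken, which gave 15 of the 45101 probe sets, for 9 of 18193 genes. In dystrophic muscle, monocytes that carry Ccr2 enter necrotic fibres and become macrophages, and damaged tissue is a source of their ligands. Human CCL7 is also a known substrate of matrix metalloproteinase 2 (MMP-2), which trims it to a form that blocks its receptors. That cleavage concerns protein, which these arrays did not measure.

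Total RNA of tibialis anterior, a mostly fast-twitch shin muscle, was measured on Affymetrix mouse expression arrays. The groups were mdx/MMP-2-/- mice at 3 months and at 1 month of age (called mdx/MMP-2 null here) and mdx mice at 3 months and at 1 month, with the strain given as C57BL/6J in every group. All 4 groups carried the mdx mutation of dystrophin and none was wild type, so the comparison is of MMP-2 loss within dystrophic muscle. Each group had 1 array, the labels do not say whether animals were pooled, and so no difference between 2 arrays has a replicate check or a test.

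Signals below are quantile scaled, and a floor of 17.4, the 50th percentile of all signals, was set before log2 differences were taken. Mmp2 was 40.9 in mdx/MMP-2 null, against 805 in mdx muscle at 3 months, and 24.7 and 986 at 1 month, which fits the genotype labels. Before scaling, the 2% trimmed mean of the mdx/MMP-2 null array at 3 months was 1.34 times that of mdx at 1 month, and the other arrays lay between 0.991 and 1.07 times. Fast fibre genes such as Myh4 and Myh1 stood near the top of the signal range in every array. Over all genes at 3 months, 151 reached 2-fold on the side of mdx/MMP-2 null muscle and 54 on the side of mdx, with median scaling 216 and 39, and with no scaling 855 and 13.

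At 3 months all 9 genes were higher in mdx/MMP-2 null than in mdx muscle, where 47.6% of the 12803 genes above the floor were (48.1% were lower). For Ccl3 the floor filter fixed this direction, because Ccl3 was above the floor only in mdx/MMP-2 null at 3 months. Ccl7, Ccr1, Ccl2, Ccl9 and Ccr2 were at least 2-fold higher, which is 5 of 9 genes against 1.18% of all genes, and none was 2-fold lower (0.422% of all genes). At 1.5-fold, 6 of 9 were higher (6.1% of all genes) and none lower (3.32%). By probe set, 6 of 15 reached 2-fold higher and none 2-fold lower. Of the 26035 probe sets above the floor in at least 1 array, 1.11% and 0.568% did. The 15 include 1 of Ccr1 that was below the floor in all 4 arrays. The median log2 difference of the 9 was 1.20, with a range of 0.21 to 2.25, and the median of all genes was 0. In bulk muscle, a difference in the number of cells of a type and one in RNA per cell cannot be told apart. The mdx/MMP-2 null array at 3 months held the highest of the 4 signals for 9 of 9 genes, as it did for 26.2% of all genes. For Ccl3 this too was fixed by the filter. That array stood at least 2-fold above each of the other arrays for 4 of the 9 (0.25% of all genes). It stood at least 1.5-fold above each for 6 (1.51%).

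**Figure D1:**
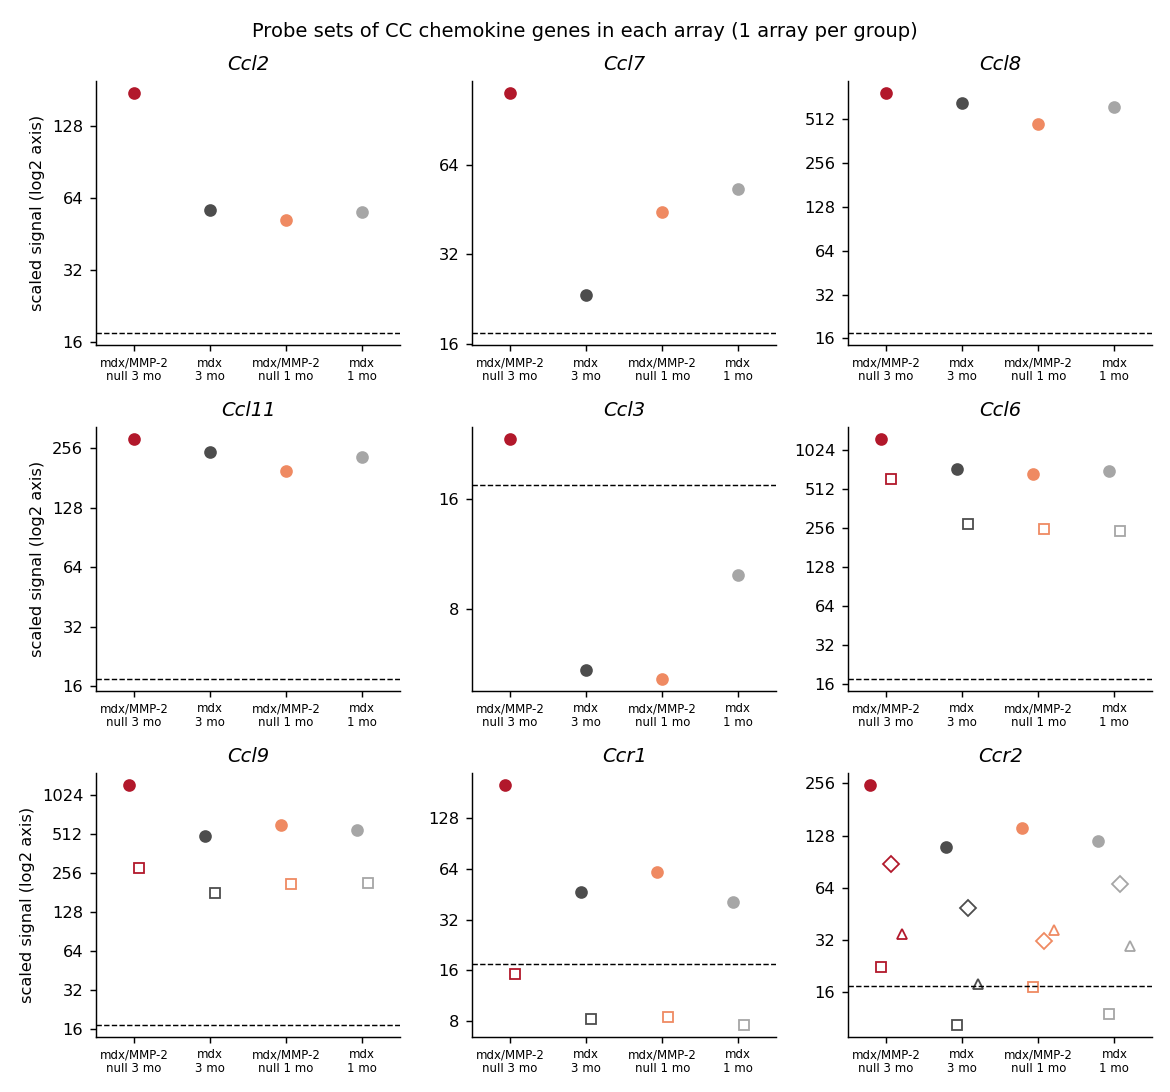
Scaled signal (log2 axis) of every probe set of the 9 genes in each of the 4 arrays. Filled circles mark the probe set that represents the gene, open symbols its other probe sets, and the dashed line the floor of 17.4. For all 9 genes the filled circle of mdx/MMP-2 null at 3 months is the highest.

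Ccl2 and Ccl7 belong to the monocyte chemoattractant proteins and bind Ccr2, the receptor that lets inflammatory monocytes leave the bone marrow. Ccl7 had a signal of 111 in mdx/MMP-2 null, against 23.4 in mdx muscle at 3 months, and of 44.6 and 53.0 at 1 month. Its 4.75-fold difference at 3 months, with the sign kept, exceeded that of 99.96% of genes, and its signal in mdx at 3 months was close to the floor. Ccl2 had a signal of 176 in mdx/MMP-2 null, against 57.1 in mdx muscle at 3 months, and of 52.0 and 56.0 at 1 month. The 3 lower Ccl2 signals were close together, and 1 array stood apart, 3.08-fold above the next.

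Ccl8 and Ccl11 are relatives of Ccl2 with other receptors. Mouse Ccl8 acts on Ccr8, and Ccl11, or eotaxin, draws eosinophils through Ccr3. Ccl8 had a signal of 771 in mdx/MMP-2 null, against 655 in mdx muscle at 3 months, and of 471 and 622 at 1 month. Ccl11 had a signal of 285 in mdx/MMP-2 null, against 246 in mdx muscle at 3 months, and of 196 and 231 at 1 month. Both differences at 3 months were small, 1.18-fold and 1.16-fold higher. With the sign kept, 76.11% to 78.09% of genes lay below them, a share that includes all genes lower in mdx/MMP-2 null. Signals of Ccr3 and Ccr8 were below the floor in all 4 arrays.

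Ccl3, Ccl6 and Ccl9 are ligands of Ccr1. Ccl6 and Ccl9 are made by mouse macrophages and other myeloid cells. Ccl9 had a signal of 1234 in mdx/MMP-2 null, against 497 in mdx muscle at 3 months, and of 599 and 550 at 1 month. It was 2.48-fold higher at 3 months, and its other probe set was 1.55-fold higher (279 against 180). Ccl6 had a signal of 1257 in mdx/MMP-2 null, against 729 in mdx muscle at 3 months, and of 670 and 707 at 1 month. It was 1.72-fold higher by this probe set and 2.24-fold by its other one (611 against 273), so whether Ccl6 passed 2-fold depended on the probe set. Ccl3, a further ligand of Ccr1, was above the floor in mdx/MMP-2 null muscle at 3 months, with a signal of 23.3, and below it in the other 3 arrays, with signals of 5.46 in mdx at 3 months and, at 1 month, of 5.16 in mdx/MMP-2 null, against 9.91 in mdx. It was therefore at least 1.34-fold higher at 3 months, and at 1 month no fold can be given.

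The receptor Ccr1 is found on monocytes, macrophages and neutrophils. Ccr1 had a signal of 204 in mdx/MMP-2 null, against 47.0 in mdx muscle at 3 months, and of 61.7 and 40.6 at 1 month. It was 4.33-fold higher at 3 months and 1.52-fold higher at 1 month, the largest difference among the 9 genes at the younger age. Its other probe set was below the floor in all arrays, with its highest signal, 15.2, in mdx/MMP-2 null at 3 months. Because that probe set has no measured difference, the size for Ccr1 rests on 1 probe set.

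Ccr2 had a signal of 251 in mdx/MMP-2 null, against 110 in mdx muscle at 3 months, and of 142 and 119 at 1 month. It had 4 probe sets, and at 3 months all were higher in mdx/MMP-2 null. The brightest was 2.29-fold higher, the next ones 1.79-fold (88.2 against 49.2) and 1.92-fold (34.6 against 18.0), and the dimmest at least 1.29-fold. At 1 month they did not run alike. One was 1.22-fold higher (36.4 against 29.7) and another 2.13-fold lower (31.4 against 66.9), while the brightest was 1.20-fold higher.

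**Figure D2:**
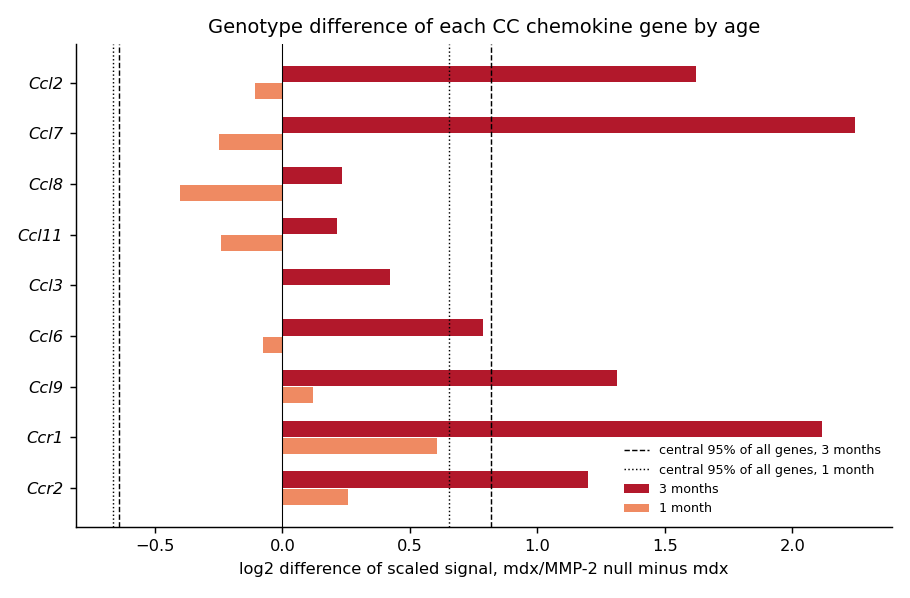
Log2 difference of scaled signal, mdx/MMP-2 null minus mdx, for each of the 9 genes at 3 months (dark bars) and 1 month (light bars). Vertical lines enclose the central 95% of all genes, from -0.64 to 0.82 at 3 months and from -0.66 to 0.65 at 1 month. The 3-month bars of Ccl2, Ccl7, Ccl9, Ccr1 and Ccr2 lie beyond the range for that age, and no 1-month bar does.

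At 1 month the genotypes were close for these genes. Ccr1, Ccr2 and Ccl9 were higher in mdx/MMP-2 null (46.7% of all genes were), and Ccl2, Ccl6, Ccl7, Ccl8 and Ccl11 were lower (48.4% were), with a median log2 difference of -0.08. None of the 9 was at least 2-fold higher, as 0.57% of all genes were, and none at least 2-fold lower, as 0.578% were. At 1.5-fold only Ccr1 was higher (3.51% of all genes) and none lower (3.56%). By probe set, none of 15 reached 2-fold higher (0.703% of all probe sets above the floor in at least 1 array). The Ccr2 probe set described above was the only one 2-fold lower (0.626%). Ccl8 was furthest below 0, 1.32-fold lower. The signs of Ccl2, Ccl9 and Ccr2 at 1 month were not stable. Ccl2 had a log2 difference of 0.05 with no scaling, where the all-gene median was 0.09. Ccl9 had -0.02 with median scaling, where that median was -0.10. Against these medians Ccl2 was still lower and Ccl9 still higher. Ccr2 had -0.14 with the mean of all probe sets.

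The signed log2 difference at 3 months minus that at 1 month was above 0 for the 8 genes other than Ccl3, as for 50.5% of all genes (49.5% were below 0). Ccl3 was below the floor in both 1-month arrays and has no measured contrast. In size, without the sign, the differences of Ccl8 and Ccl11 were smaller at 3 months than at 1 month. By the signed contrast Ccl2 stood at 1.73, Ccr1 at 1.51 and Ccl9 at 1.19, while Ccl7 was highest with a ratio of folds of 5.64. These 4 passed 2-fold, against 2.91% of all genes, and none did so downward (1.69%). The other 4 measured genes ranged from 0.45 (Ccl11) to 0.94 (Ccr2). No replicate allows a test of that contrast.

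Between ages, the mdx/MMP-2 null arrays differed more for these genes than the mdx arrays did. In mdx/MMP-2 null all 9 were higher at 3 months than at 1 month, 4 of them (Ccl2, Ccr1, Ccl7 and Ccl9) at least 2-fold, against 1.47% of all genes, with a median log2 difference of 0.91. Over all genes 50% were higher and 45.7% lower at 3 months. The direction of Ccl3 in mdx/MMP-2 null was again fixed by the floor filter. At 1.5-fold, 7 of the 9 were higher (7.4%) and none lower (6.72%), and none reached 2-fold lower (1.22%). In mdx the median was 0.03, with 5 genes higher (47.9% of all genes) and 3 lower (47.7%) at 3 months. None was 1.5-fold higher (5.96%), and 1 was 1.5-fold lower (7.27%). No gene of the 9 was at least 2-fold higher at 3 months (0.976% of all genes), and Ccl7 alone was at least 2-fold lower (1.55% of all genes). Ccl7 was 2.26-fold lower at 3 months in mdx and, on the log2 scale, 1.32 higher at 3 months in mdx/MMP-2 null, so its large genotype difference at 3 months has a part from each array. These comparisons share arrays with the genotype comparisons and are not independent of them. For the Actb control, the ratio of the 3' to the 5' probe set, which rises as RNA degrades, was 2.09 in mdx/MMP-2 null, against 2.36 in mdx muscle at 3 months, and 1.05 and 1.19 at 1 month. The same ratio for Gapdh was 0.935 in mdx/MMP-2 null, against 0.936 in mdx muscle at 3 months, and 0.850 and 0.883 at 1 month. The part of RNA quality in the age differences was not tested.

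The only test that 4 single arrays allow is an additive fit of genotype and age in limma, in which a genotype difference limited to 1 age counts as error. None of the 9 genes passed an adjusted p of 0.05 for genotype, and neither did any of the 12803 genes (0%). Mmp2, the deleted gene, was among those not called. The absence of calls therefore cannot show that the 9 genes did not differ. At an unadjusted p of 0.05 the fit called 2 of the 9, Ccr1 and Ccr2, against 4.37% of all genes. In this limma fit Ccr1 had a genotype effect of 1.36 on the log2 scale (unadjusted p = 0.0196, Benjamini-Hochberg adjusted p = 0.981), higher in mdx/MMP-2 null at both ages. Ccr2 had an effect of 0.73 (limma, unadjusted p = 0.0457, adjusted p = 0.981). For age the limma fit called 0 of 9 at the adjusted level (0% of all genes) and 0 of 9 at the unadjusted level (13.8% of all genes), and the lowest was Ccr1 with an adjusted p of 0.376.

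The genes lie in 3 clusters of the mouse genome, by the gene order of GRCm38. On chromosome 11, Ccl2, Ccl7, Ccl11, Ccl12 and Ccl8 follow each other, and at 3 months neighbours differed in size. Ccl2 and Ccl7 had log2 genotype differences of 1.62 and 2.25, Ccl11 beside them had 0.21, Ccl12, a mouse ligand of Ccr2, had 0.89 and Ccl8 had 0.23. A separate run on chromosome 11 holds Ccl5, Ccl9, Ccl6, Ccl3 and Ccl4, with differences of 0.71, 1.31, 0.79, at least 0.42 and -0.21. On chromosome 9, Ccr1 and Ccr2 are separated by Ccr1l1 and Ccr3, which were below the floor in all arrays. Genes that flank the clusters, chosen by position after values were known, had differences between -0.36 and 0.19 where measured, apart from Wfdc17 next to Ccl4 with 0.86.

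**Figure D3:**
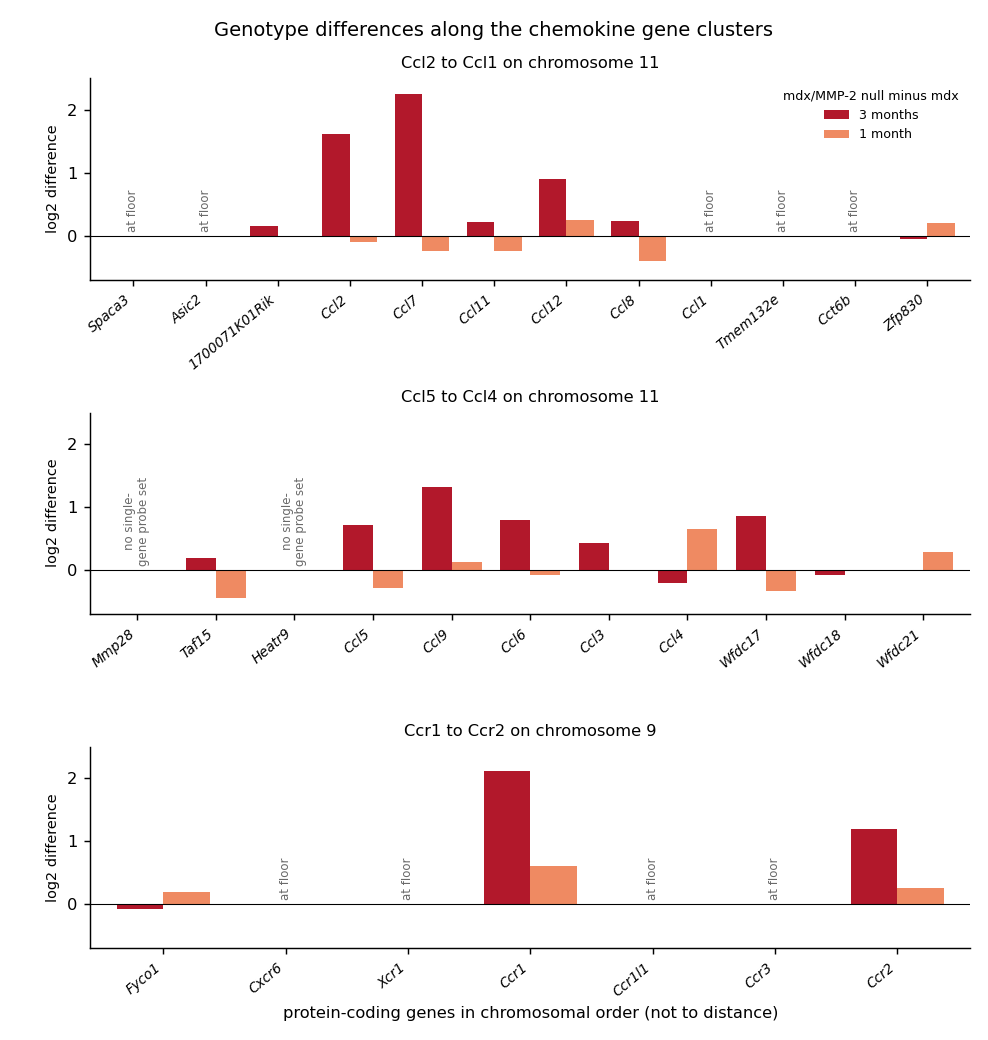
Log2 difference, mdx/MMP-2 null minus mdx, at 3 months (dark bars) and 1 month (light bars) for protein-coding genes in chromosomal order, not to distance, in the 3 clusters and genes beside them, with the receptor panel drawn as far as Ccr2. Grey text marks genes below the floor in all arrays or without a single-gene probe set. The large 3-month bars at Ccl2 and Ccl7 stand beside a small one at Ccl11. The bar of Ccl9 stands between lower ones of Ccl5 and Ccl6, and the genes between Ccr1 and Ccr2 have no bar.

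Promoter sequences were found for Ccl3, Ccl6, Ccl8, Ccl9, Ccr1 and Ccr2, 6 of the 9, and not for Ccl2, Ccl7 and Ccl11. The 250 bases before the start are shown for Ccl9, Ccr1 and Ccr2, the genes at least 2-fold higher at 3 months that have an entry (RefSeq, GRCm38.p6). Capitals mark matches, on either strand, to GGGA, any 4 bases, then CC (a simplified NF-kappaB motif), TGANTCA (AP-1) or GAGGAA (a PU.1 core). These factors are known regulators of inflammatory and myeloid genes.
Ccl9, chr11:83578637-83578886, minus strand: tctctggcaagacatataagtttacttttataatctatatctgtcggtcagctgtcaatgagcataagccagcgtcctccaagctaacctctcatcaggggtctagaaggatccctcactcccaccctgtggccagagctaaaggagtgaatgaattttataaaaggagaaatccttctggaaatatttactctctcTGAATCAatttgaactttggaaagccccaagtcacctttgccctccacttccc
Ccr1, chr9:123968693-123968942, minus strand: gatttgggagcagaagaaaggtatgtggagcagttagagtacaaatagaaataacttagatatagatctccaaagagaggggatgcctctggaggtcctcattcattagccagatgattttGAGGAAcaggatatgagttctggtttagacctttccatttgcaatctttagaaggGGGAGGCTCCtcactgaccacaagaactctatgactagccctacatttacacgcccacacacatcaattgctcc
Ccr2, chr9:124101933-124102182, plus strand: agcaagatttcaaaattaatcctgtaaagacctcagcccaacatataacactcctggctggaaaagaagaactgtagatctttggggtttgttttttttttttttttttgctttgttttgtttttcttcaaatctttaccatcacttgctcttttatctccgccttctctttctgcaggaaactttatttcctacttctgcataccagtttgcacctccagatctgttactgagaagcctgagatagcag
Ccl9 held 1 AP-1 match that begins 53 bases before the start, a motif in 6.75% of 32851 promoters of this length. Ccr1 held 1 NF-kappaB match at 74 bases (17.6% of promoters) and 1 PU.1 match at 129 bases (23.3% of promoters), and the motifs did not overlap. The Ccr2 window held none of the 3. Of the promoters not shown, those of Ccl3 and Ccl8 held 1 PU.1 match each, and that of Ccl6 none. The 3 printed windows share no motif of those searched. Their genes were chosen by their 3-month difference, and shared regulation was not tested.

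Of 14 further CC ligands, 8 were above the floor in at least 1 array. At 3 months 5 of these were higher in mdx/MMP-2 null, against 47.6% of all genes (median log2 difference of the 8, 0.51). Ccl24, another eosinophil chemoattractant of macrophages, had a signal of 70.2 in mdx/MMP-2 null at 3 months, while it was 7.85 in mdx at 3 months and, at 1 month, 6.39 in mdx/MMP-2 null, against 10.1 in mdx, all below the floor. It was thus at least 4.02-fold higher at 3 months and the only one of the 8 past 2-fold (1.18% of all genes). Ccl24 was above the floor in 1 array only, so the floor filter fixed its direction, and it adds no support to the 5 counted as higher. Ccl12 was 1.86-fold (108 against 57.9), Ccl25 1.92-fold (39.5 against 20.5) and Ccl5, a ligand of Ccr1, 1.63-fold higher (66.2 against 40.6). Ccl17 had a log2 difference of 0.31, Ccl4 -0.21, Ccl27a -0.46 and Ccl28, below the floor in mdx/MMP-2 null, at most -0.95. The 6 further receptors above the floor, Ccr6, Ccr10, Ccrl2, Ackr1, Ackr2 and Ackr4, ranged from -0.32 to 0.04, with Ccr6, Ccr10 and Ackr2 below the floor in mdx/MMP-2 null, so none was near the values of Ccr1 and Ccr2. With no scaling, 5 of 7 receptors then above the floor had positive values, 1 of them above the median of all genes.

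Genes that act with these chemokines were chosen with earlier results known. Of 21 measured genes of receptor signalling, 17 were higher at 3 months in mdx/MMP-2 null, against 47.6% of all genes (median 0.24). None was past 2-fold (1.18% of all genes). Pik3r5, an adaptor of phosphoinositide kinase gamma, had 52.4 in mdx/MMP-2 null, against 27.3 in mdx, Arrb2, which ends receptor signalling, 197 and 115, and Dock2, needed for leukocyte migration, 101 and 60.3. Of 27 genes that induce chemokines or carry that signal, 21 were higher at 3 months (47.6% of all genes), with a median of 0.37. At least 2-fold higher were 3 of them (1.18% of all genes). These were Il1r1, a receptor of interleukin-1, at least 3.22-fold (56.2 in mdx/MMP-2 null, below the floor in mdx), the NF-kappaB subunit Relb, 2.15-fold (56.0 and 26.1), and Csf1, the macrophage growth factor, 2.03-fold (146 and 72.2). At 1 month the medians of both lists were below 0, -0.11 and -0.08, and with no scaling 0.07 and 0, where the median of all genes moved by 0.09.

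Markers of myeloid cells were high in the same array. Of the macrophage and monocyte markers, 25 of 25 measured were higher at 3 months (47.6% of all genes were), with a median of 0.66. Their summed signal was 16651 in mdx/MMP-2 null, against 10703 in mdx at 3 months, and 13416 and 14504 at 1 month. The summed signal of the 9 chemokine genes was 4312 in mdx/MMP-2 null, against 2370 in mdx at 3 months, and 2242 and 2388 at 1 month. The chemokine sum was thus alike in the 3 lower arrays, while the marker sum of mdx at 3 months was below both 1-month arrays. Sums are set mostly by their brightest genes, here Ccl6, Ccl8 and Ccl9, and do not show the low Ccl7 signal of mdx at 3 months. Ccl2, Ccl7, Ccl9, Ccr1 and Ccr2 each had a larger 3-month difference than 24 of the 25 markers, Chil3 (at least 10.7-fold) being the exception, and Ccl8 and Ccl11 a smaller one than 23 and 24. These 5 were already the genes past 2-fold on the same value, so their rank adds no support. For Ccl9 and Ccr2 it rests on the brightest probe set. The other Ccl9 probe set had a log2 difference of 0.63, against 1.16 for Msr1. The other Ccr2 probe sets had 0.84, 0.94 and, for the dimmest, at least 0.37. The general macrophage markers Adgre1 and Cd68 had signals of 443 and 272 in mdx/MMP-2 null, and of 333 and 172 in mdx, at 3 months. The part of these cells in the chemokine differences was not tested.

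Of 9 measured neutrophil markers, 7 were higher at 3 months (47.6% of all genes) and 4 past 2-fold (1.18%), with a median of 0.89. Mpo was lower (below the floor, against 23.8 in mdx), and Camp was below the floor in both 3-month arrays. The summed signal of the 9 was 790 in mdx/MMP-2 null, against 181 in mdx at 3 months, and 261 and 260 at 1 month. Its largest parts in mdx/MMP-2 null at 3 months were S100a8 and S100a9. They had 343 and 216 there, against 35.9 and 20.2 in mdx at 3 months. Cxcr2, Ltf and Elane were below the floor in all arrays. Fibroblast markers, of cells that also make Ccl2, Ccl7 and Ccl11, had a median of 0.18. Of 14 such markers, 13 were above 0 (47.6% of all genes were), and 10 with median scaling. Their summed signal was 49429 in mdx/MMP-2 null, against 46386 in mdx at 3 months, and 49639 and 51282 at 1 month. Eosinophil and mast cell markers (8 measured) had a median of -0.10, with Epx, Prg2 and Il5ra below the floor in every array. Dendritic cell markers (7 measured) had a median of 0.0035, B cell markers (3 measured) of 0.10 and T and NK cell markers (2 measured) of 0.10, with Cd3e and Cd3d below the floor in every array. Endothelial markers had a median of -0.24 and fast fibre markers of -0.02, and regenerating fibre markers stood at 0.30. With no scaling, the endothelial, eosinophil and mast cell, and fast fibre medians were 0.23, 0.26 and 0.08, below the all-gene median of 0.41.

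**Figure D4:**
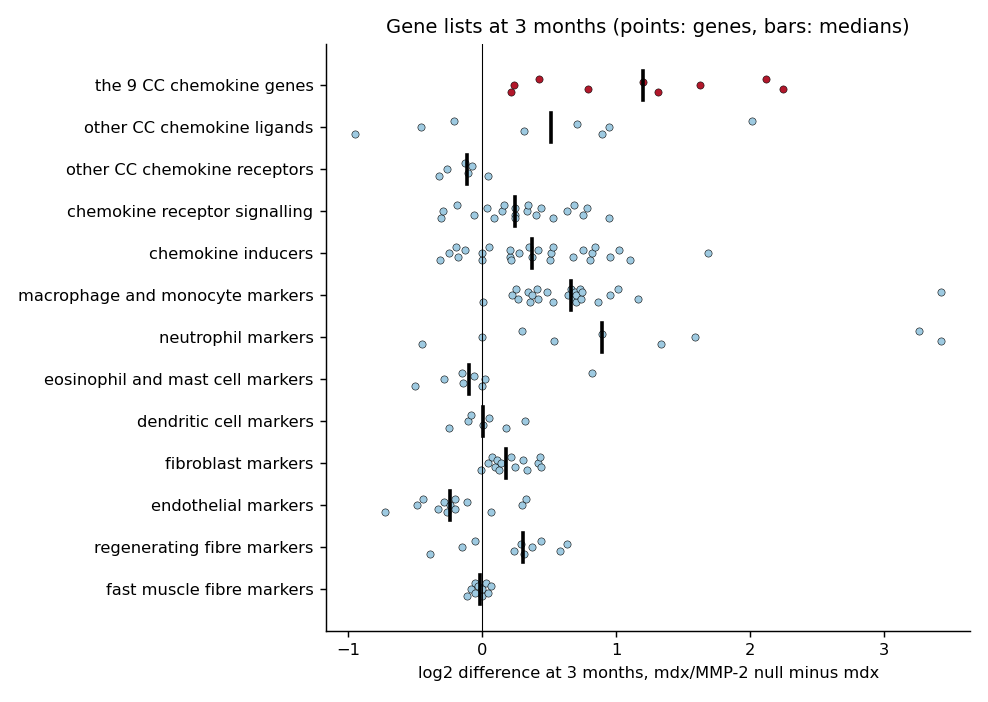
Log2 difference at 3 months, mdx/MMP-2 null minus mdx, of each measured gene (points) and the median (bars) for the 9 CC chemokine genes and for the other lists. The 9 genes have a median of 1.20, macrophage and monocyte markers 0.66, neutrophil markers 0.89 and fibroblast markers 0.18.

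Among the 8 genes above the floor in every array, all but Ccl3, profiles over the 4 arrays were nearest for Ccl8 and Ccl11 (Euclidean distance 0.14 between centred log2 signals) and for Ccl9 and Ccr2 (0.16), and furthest for Ccl8 and Ccr1 (1.61). Ccl2 and Ccl7 were 0.94 apart, the low Ccl7 signal of mdx at 3 months being where they differed most. Of the 10678 other genes above the floor in every array, those nearest to Ccl7 were Slc15a3 (0.39), Timp1 (0.49), an inhibitor of metalloproteinases, and Prrx2 (0.56). Nearest to Ccr1 were Mmp3 (0.60), the protease stromelysin, Ccl2 (0.62) and Ccn5 (0.65). Nearest to Ccr2 were Ifi207 (0.06), Ms4a4c (0.10) and Plin2 (0.10), and to Ccl2 Rrad (0.22), Clec4d (0.22), a myeloid lectin receptor, and Adcy5 (0.22). Each profile has 4 points, and closeness describes these arrays only.

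**Figure D5:**
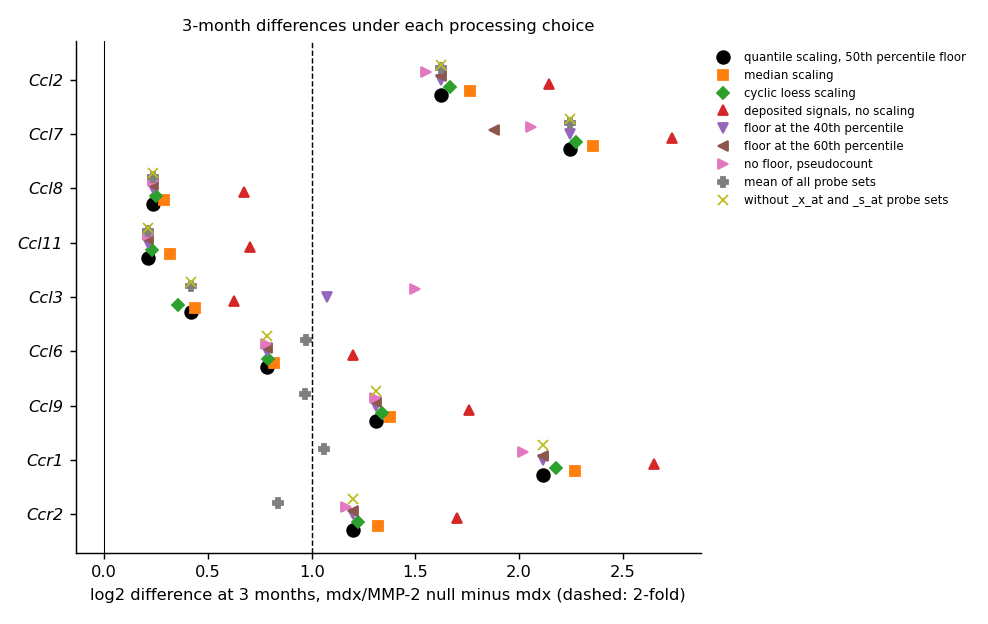
Log2 difference at 3 months, mdx/MMP-2 null minus mdx, of each of the 9 genes under quantile scaling with a 50th percentile floor (black circles) and 8 other choices. The dashed line marks 2-fold. Ccl2, Ccl7 and Ccr1 lie beyond 2-fold under every choice drawn, Ccl9 and Ccr2 under all but the mean of all probe sets, and all values are above 0.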

How the data were processed

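The deposited values are intensity: per the submitters' processing notes, Affymetrix Expression Console gave a linear MAS5 signal for every probe set. Versions and scaling settings are not given in the sources used here. Overall level differed between columns as received. Of 45037 non-control probe sets, 34945 carried 1 gene symbol, and the 932 with several and 9160 with none were not named.

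Arrays were quantile normalized (limma 3.58.1, R 4.3.3) and signals below 17.4, the 50th percentile, were raised to it. The probe set of highest average log2 signal stood for its gene. Genes under the floor on every array were dropped, which left 12803. Where a gene was above the floor in 1 array only, this step fixed its direction toward that array. Ccl3, Ccl24 and some other listed genes were such cases. With 1 array per group, genes at or past 2-fold were counted, and folds against the floor are lower bounds. The additive fit used lmFit and eBayes with 1 residual degree of freedom and Benjamini-Hochberg adjustment over all genes. It was tested on simulated data with equal noise in every gene, both with the quantile step and floor and without them. False calls were slightly more frequent with them than the threshold implies.

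The 9 genes, the lists and the rule for named genes were chosen with earlier results of these data known. The rule named the 9 genes, Mmp2, every other CC ligand or receptor above the floor, up to 4 genes a list by 3-month difference, the first 2 markers of a cell type, and the 3 nearest profiles. Other markers below the floor are named as such. Scaling, floor, pseudocount, probe set choice, fold threshold, variance prior and adjustment were varied.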

Additional observations from a re-analysis of the deposited data

Results flagged for a closer look

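The genotype difference ran in opposite directions at the 2 ages for 2 genes that were at least 2-fold apart between ages. Ccl7 had a log2 difference of 2.25 at 3 months and -0.25 at 1 month, 2.5 apart. Ccl2 had 1.62 at 3 months and -0.11 at 1 month, 1.73 apart. Each value rests on single arrays, and the difference between ages was not tested. The 1-month value of Ccl2 was 0.05 with no scaling, where the all-gene median was 0.09.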

How the results depend on the processing

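All 9 genes stayed higher in mdx/MMP-2 null at 3 months under every scaling, floor and probe set choice that measured them (Ccl3 was not measured with the floor at the 60th percentile). For Ccl3 the floor filter fixed that direction. The count past 2-fold at 3 months, 5, was 3 with the mean of all probe sets, where Ccl9 (log2 0.97) and Ccr2 (0.84) fell short, and 3 at 3-fold. At 1 month the 1.5-fold threshold gave 1 gene higher (3.51% of all genes), against 0. For age in mdx/MMP-2 null, the 4 genes past 2-fold were 7 with median scaling and 7 with no scaling. The all-gene median of that comparison was 0.19 and 0.26 under these settings, against 0. The count was 7 at 1.5-fold (7.4% of all genes) and 2 at 3-fold. Shares of all genes were not counted at 3-fold, nor for this comparison under the other scalings. For age in mdx, the 1 gene lower became 0 with the floor at the 60th percentile and 0 at 3-fold. The additive fit for genotype called 1 of the 9 genes with no scaling (Ccr1, limma adjusted p = 0.0362), where it called 21 of 12872 genes in all, and 2 without adjustment, against 0. The count of all genes at least 2-fold higher at 3 months, 151, ranged from 73 (floor at the 60th percentile) to 855 (no scaling, where the all-gene median stood at 0.41). Where no cause is named, the cause was not tested. No paired analysis was possible because each group had 1 array. Signals near the floor limit Ccl3, Ccl7 in mdx at 3 months and the dimmer probe sets of Ccr1 and Ccr2.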

Other observations

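Wfdc17, a secreted protein of macrophages that lies beside the Ccl5 to Ccl4 run on chromosome 11, had a signal of 649 in mdx/MMP-2 null, against 358 in mdx muscle at 3 months, and of 374 and 471 at 1 month, and it was named after its values were seen. The 2 genes after it, Wfdc18 and Wfdc21, had log2 differences of -0.08 and -0.0034 at 3 months. Of the chemokine inducers, Socs3, which damps cytokine receptor signals and was also named after its values were seen, was 1.79-fold higher in mdx/MMP-2 null at 3 months and had a log2 difference of -2.52 at 1 month.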
